A study of Mus musculus with 9 samples.

Results

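The genes described are 4 retinoid receptor genes (Rara, Rarg, Rxra and Rxrb), the corepressor gene Ncor1, the retinaldehyde reductase gene Dhrs3 and the repressor gene Hic1. They were taken by symbol from a deposited table of 23936 named genes, and all 7 were found. RNA was sequenced from 9 libraries of mouse OT-I CD8 T cells, which carry a transgenic receptor for an ovalbumin peptide, so this receptor is shared by all groups. The groups, with 3 libraries each, are labelled as naive cells from the spleen, spleen-primed cells from the spleen and MLN-primed cells from the MLN, a gut-draining lymph node. In the titles "iv" goes with spleen-primed and "oral" with MLN-primed samples, so these words and the organ cannot be told apart when the primed groups are compared. Naive cells came from the spleen only, so priming and organ cannot be told apart when MLN-primed cells are compared with naive cells. The priming agent, the interval after priming, the age of the mice and the sorting gate were not given in the sources used here. Nothing in the labels ties the libraries of a group to separate animals, and p-values therefore reflect the spread of these libraries only, which may be technical.

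Retinoic acid is made from vitamin A in cells that hold retinaldehyde dehydrogenases, among them dendritic cells of the MLN, and it gives T cells their gut-homing receptors. It acts through retinoic acid receptors (RARs), which bind DNA as pairs with retinoid X receptors (RXRs) at direct repeats of a short half-site. Without ligand the pair holds corepressors such as NCOR1, and with ligand it exchanges them for coactivators. DHRS3 turns retinaldehyde back into retinol and so lowers the supply of retinoic acid. HIC1 is a BTB and zinc finger repressor known to respond to retinoic acid in intestinal immune cells.

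In the GRCm38 annotation, 3 of the genes lie on chromosome 11, namely Hic1 at 75164565 to 75169519 on the minus strand, Rara at 98927818 to 98974942 on the plus strand and Ncor1 at 62316426 to 62458541 on the minus strand. The others are Rarg on chromosome 15 (102234938 to 102257517, minus strand), Rxra on chromosome 2 (27676440 to 27762957, plus strand), Rxrb on chromosome 17 (34031812 to 34038399, plus strand) and Dhrs3 on chromosome 4 (144892827 to 144928209, plus strand). All are protein-coding. Ncor1 overlaps the opposite-strand genes Ttc19 and Pigl, which averaged 2.45 to 2.97 and 2.48 to 4.98 FPKM in the groups, and whether quantification used strand is not stated.

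Hic1 and Rara are the genes on which the comparison of the primed groups turns, and sequence before their starts is shown to let a reader look for receptor half-sites. RefSeq promoter windows of GRCm38.p6 (250 bases before to 50 after a start) were matched for 7 of 7 genes, 17 windows in all. The half-site was searched on both strands as AGGTCA, the usual form, and as the variant GGGTCA, which both Hic1 windows hold, or as AGTTCA, which the Rara window holds beside the variant GGTTCA. Likewise direct repeats were sought as 2 half-sites in the same direction with 1, 2 or 5 bases between them. Capitals mark half-sites, and those on the other strand appear as their reverse complement. The 250 bases before each of the 2 Hic1 starts and before the Rara start with the most half-sites read, 5′ to 3′ on the strand of the gene. The first lies before the annotated Hic1 gene, and the other stretches lie within the annotated bounds of Hic1 and of Rara:
Hic1, chr11:75170256-75170505 (minus strand): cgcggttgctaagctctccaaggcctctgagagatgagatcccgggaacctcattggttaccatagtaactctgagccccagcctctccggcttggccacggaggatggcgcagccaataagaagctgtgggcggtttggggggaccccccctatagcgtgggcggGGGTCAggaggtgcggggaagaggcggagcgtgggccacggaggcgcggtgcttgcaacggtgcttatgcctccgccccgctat
Hic1, chr11:75168153-75168402 (minus strand): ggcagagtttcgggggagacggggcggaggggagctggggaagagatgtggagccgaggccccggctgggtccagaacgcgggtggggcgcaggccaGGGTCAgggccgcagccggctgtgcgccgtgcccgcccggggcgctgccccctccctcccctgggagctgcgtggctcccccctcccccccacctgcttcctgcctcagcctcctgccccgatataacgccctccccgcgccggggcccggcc
Rara, chr11:98939461-98939710 (plus strand): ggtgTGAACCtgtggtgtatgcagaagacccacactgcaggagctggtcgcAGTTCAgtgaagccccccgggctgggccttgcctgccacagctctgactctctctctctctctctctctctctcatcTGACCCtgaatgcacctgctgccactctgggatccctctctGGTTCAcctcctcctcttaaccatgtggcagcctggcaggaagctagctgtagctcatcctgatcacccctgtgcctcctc
Each Hic1 window held 1 half-site, and the Rara window held 4. A half-site occurred in 7 of the 17 windows of these genes (41.2%) and in 43.7% of all 32851 windows, so the shares are close. None of the 17 windows held a direct repeat, which occurred in 0.222% (1 base between), 0.268% (2 bases) and 0.0974% (5 bases) of all windows. A missing match says only that these letters are not in these windows. The Hic1 windows held 20 and 29 CpG in 300 bases against a median of 7 over all windows, and 73.5% and 87.1% of all windows held fewer. This is not particular to Hic1, since windows of the other genes held from 1 to 55 CpG (both in Rxra), with 37 and 47 in those of Rxrb.

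Values are FPKM, in which fragments are divided by transcript length and library size, which allows levels to be compared between genes but keeps no read number, so the depth is unknown. Totals were 612887 to 720165 FPKM per library, and 9469 to 9667 genes reached 1 FPKM. Tests used limma on log2(FPKM + 1) over all 9 libraries for 10185 genes, those that reached 1 FPKM in 3 or more libraries, with Benjamini-Hochberg adjustment and a threshold of 0.05. All 7 genes passed this filter, Hic1 and Dhrs3 only through their primed libraries, since both were below 1 FPKM in every naive one. Log2 changes on this scale understate those of genes near 0. CD8 T cell markers summed to 3013 to 3396 FPKM in the naive libraries, 2369 to 2399 in the spleen-primed and 1676 to 1800 in the MLN-primed ones, with 6 of 6 found markers at 1 FPKM or more in each group. Of the markers of other cells, the dendritic cell and MHC class II list (10 genes) summed to 94.8 to 167 FPKM in the naive libraries, 96.0 to 106 in the spleen-primed and 38.5 to 50.2 in the MLN-primed libraries. These sums hold genes that ran opposite ways. The MHC class II genes were higher in naive libraries, with Cd74 at 55.4, 2.11 and 1.98 FPKM on average in naive, spleen-primed and MLN-primed cells, H2-Aa at 33.3, 0.935 and 0.287 and H2-Ab1 at 30.3, 0.999 and 0.916. Itgax, which effector T cells also express, was at 1.06, 94.8 and 42.0 FPKM, and Flt3 and Clec9a were listed at 0 in all MLN-primed libraries. Myeloid markers (9 of 10 found) summed to 12.2 to 61.2, 50.4 to 52.1 and 16.7 to 20.2 FPKM in the same order. Of these, S100a8 (11.2, 0.102 and 0 FPKM on average), S100a9 (8.26, 0.294 and 0), Tyrobp (8.28, 2.32 and 0.526) and Lyz2 (5.79, 0.863 and 0.170) were higher in naive libraries. Itgam (0.326, 30.3 and 9.30) and Cd68 (1.06, 15.6 and 7.69) were higher in primed ones. MHC class II and these 4 myeloid genes thus move with every comparison against naive cells. The B cell list summed to 7.79 to 15.8 FPKM, the stromal and endothelial list to 37.1 to 43.8 in naive libraries and to 4.60 or less in all others (nearly all Pecam1), the epithelial list to 1.98 or less and the CD4 T cell list to 38.5 or less. The NK cell list was at 12.3 to 28.2 FPKM in naive and at 1700 to 2847 FPKM in primed libraries. In primed libraries nearly all of it was Gzma, which effector CD8 T cells express. In naive libraries Gzma averaged 11.4 FPKM, Eomes 5.69 and Klrb1c 1.75. Ncr1 and Klra8 had higher means in naive cells (0.375 and 0.359) than in spleen-primed (0.0185 and 0.0742) or MLN-primed ones (0.0100 and 0.0104). Klrb1a averaged 0.0563 in naive and was at 0 in all primed libraries. Eomes was higher in spleen-primed (25.7) and MLN-primed cells (11.9), and Klrb1c in spleen-primed cells only (2.41, against 0.474 in MLN-primed). The part of these cells in the results was not tested, and in bulk RNA fewer cells of a type and less RNA per cell cannot be told apart.

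How levels ran with the length of transcripts differed between groups and within them. For each doubling of length, log2(FPKM + 1) changed by -0.391 to -0.467 in naive, by -0.582 to -0.712 in the spleen-primed and by -0.592 to -0.745 in the MLN-primed libraries, so this slope moves with every comparison against naive. With the trend of each library removed, the calls of the 7 genes against naive were kept except those of Ncor1. For Hic1 and Dhrs3 the filter had fixed the direction against naive. Relative to the group mean the slope was -0.0489 in naive 2, 0.0224 in naive 3, 0.0265 in naive 1, -0.0897 in MLN-primed 1, -0.0512 in spleen-primed 1, -0.0275 in spleen-primed 2, 0.0265 in MLN-primed 3, 0.0631 in MLN-primed 2 and 0.0787 in spleen-primed 3. Results are therefore also given without MLN-primed 1 and spleen-primed 3, the outermost libraries, although what remains then has negative slopes only among spleen-primed and positive slopes only among MLN-primed libraries.

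**Figure D1:**
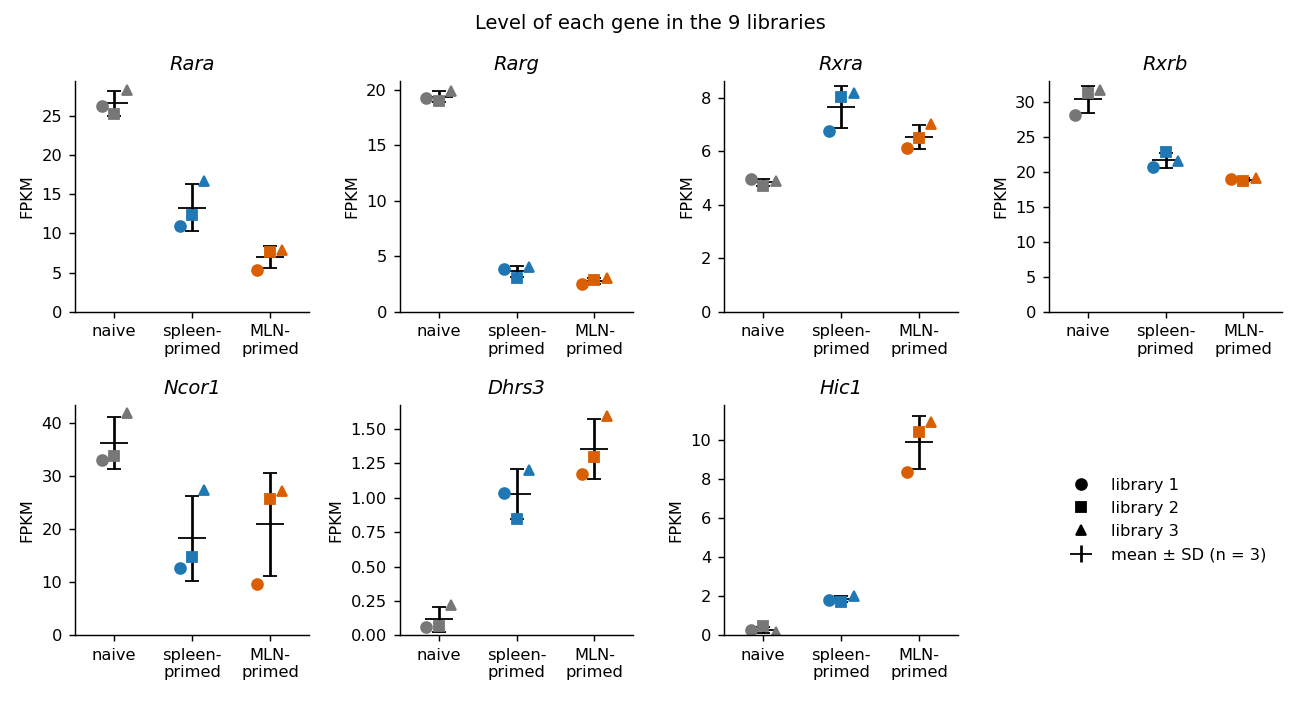
FPKM (vertical axis, from 0) of the 7 genes in naive, spleen-primed and MLN-primed cells. Circles, squares and triangles are libraries 1, 2 and 3, and bars are the mean and SD over 3 libraries. Hic1 stands at 8.37 FPKM or more in MLN-primed libraries and at 2.04 or less in all others, while Rara steps down from naive to spleen-primed to MLN-primed without overlap.

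The order of the 7 genes by level was not the same in the 3 groups. In naive cells the mean levels ran from Ncor1 (36.3 FPKM) through Rxrb (30.4), Rara (26.6), Rarg (19.4) and Rxra (4.85) down to Hic1 (0.297) and Dhrs3 (0.117). The ranges of Rxrb and Rara overlapped there, as did those of Hic1 and Dhrs3. In spleen-primed cells the order was Rxrb (21.7), Ncor1 (18.3), Rara (13.3), Rxra (7.67), Rarg (3.63), Hic1 (1.86) and Dhrs3 (1.03), with overlap from Rxrb to Ncor1 and from Ncor1 to Rara. In MLN-primed cells Hic1 moved above the receptor genes Rara, Rxra and Rarg. The order there was Ncor1 (20.9), Rxrb (18.9), Hic1 (9.91), Rara (6.96), Rxra (6.56), Rarg (2.80) and Dhrs3 (1.35), and Ncor1 overlapped Rxrb and Rara overlapped Rxra.

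Among the RARs, both expressed genes were lower in primed than in naive cells, and Rara was lower still in MLN-primed cells. Rara, which encodes RAR alpha, the main RAR of T cells, was at 26.3, 25.2 and 28.3 FPKM in naive libraries 1 to 3, at 10.9, 12.3 and 16.6 in the spleen-primed libraries and at 5.32, 7.65 and 7.91 in the MLN-primed libraries. Every naive library lay above every spleen-primed one, and every spleen-primed library lay above every MLN-primed one. The difference of MLN-primed from spleen-primed cells was -0.84 ± 0.16 on the log2 scale (SE; limma, adjusted p = 0.00430), and that from naive cells was -1.81 ± 0.16 (limma, adjusted p = 3.43e-06). Spleen-primed cells differed from naive cells by -0.97 ± 0.16 (limma, adjusted p = 3.82e-04). Among the primed libraries Rara was highest in spleen-primed 3 and lowest in MLN-primed 1, those with the outermost length slopes relative to their groups. Without these libraries the difference between the primed groups was -0.52 (limma, adjusted p = 0.00315), the smallest of the 19 alternative settings, which ran to -0.96 with adjusted p from 0.00118 to 0.0329.

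Rarg encodes RAR gamma, the receptor form known for its part in skin and for early CD8 T cell responses. It stood at 19.3, 19.0 and 19.9 FPKM in the naive libraries, 3.81, 3.04 and 4.03 in the spleen-primed and 2.50, 2.87 and 3.03 in the MLN-primed libraries. The naive libraries were far above all primed ones, and the lowest spleen-primed value, 3.04, was only just above the highest MLN-primed value, 3.03. The differences from naive were -2.15 ± 0.10 for spleen-primed and -2.43 ± 0.10 for MLN-primed cells (limma, adjusted p = 3.38e-08 and 1.09e-08). Between the primed groups the difference of -0.28 ± 0.10 did not pass (limma, adjusted p = 0.0640). It did pass in 4 of 19 alternative settings, namely median-of-ratios scaling (-0.31, adjusted p = 0.0302), quantile normalisation (-0.29, adjusted p = 0.0331), removal of the length trend (-0.28, adjusted p = 0.0413) and without spleen-primed 2 (-0.38, adjusted p = 0.0289). Rarb, the third RAR gene, was at 0.138 to 0.158 FPKM in naive and 0.0430 to 0.0868 in primed libraries and did not reach the filter.

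The RXR genes moved less, and in opposite directions. Rxra, which encodes RXR alpha, was at 4.96, 4.69 and 4.89 FPKM in the naive libraries, 6.77, 8.05 and 8.18 in the spleen-primed and 6.14, 6.51 and 7.03 in the MLN-primed libraries. All primed libraries exceeded all naive ones, and the primed groups overlapped. Rxra rose by 0.56 ± 0.09 in the spleen-primed and by 0.37 ± 0.09 in the MLN-primed cells (limma, adjusted p = 2.88e-04 and 0.00409). The latter shrank to 0.22 under median-of-ratios scaling (adjusted p = 0.0291). Rxrb, which encodes RXR beta, was at 28.2, 31.3 and 31.7 FPKM in the naive libraries, 20.7, 22.8 and 21.5 in the spleen-primed and 19.0, 18.6 and 19.1 in the MLN-primed libraries. The groups did not overlap, and the MLN-primed libraries were close together. Rxrb differed from naive by -0.47 ± 0.07 for spleen-primed and -0.66 ± 0.07 for MLN-primed cells (limma, adjusted p = 1.70e-04 and 1.22e-05), or by -0.80 and -1.01 after quantile normalisation. Between the primed groups neither RXR gene passed, with differences of -0.20 ± 0.09 for Rxra and -0.19 ± 0.07 for Rxrb (limma, adjusted p = 0.141 and 0.0727). Under median-of-ratios scaling Rxrb passed (-0.23, adjusted p = 0.0452). Rxrg was listed at 0.0212 FPKM or less in every library.

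**Figure D2:**
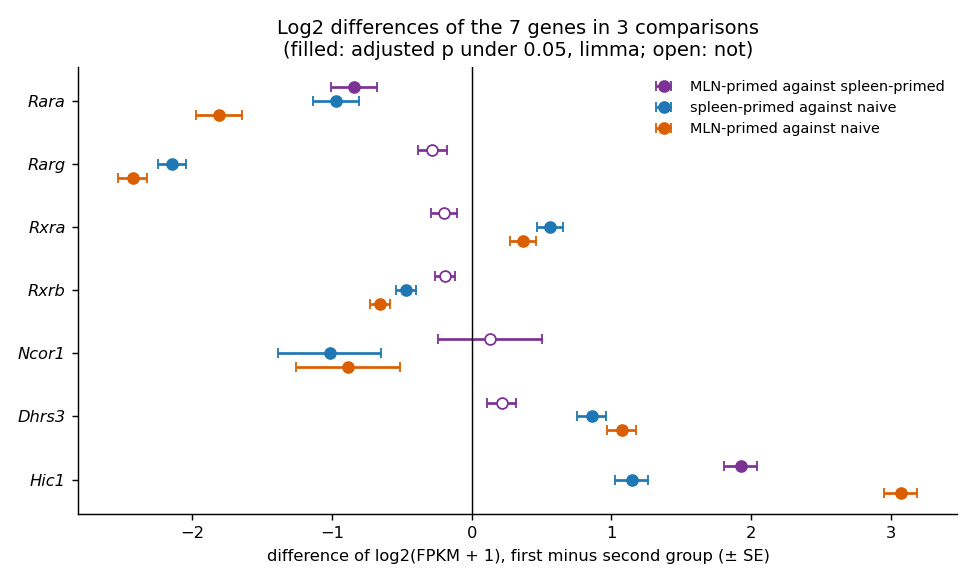
Differences of log2(FPKM + 1) with the standard error of the limma fit (horizontal axis) for the 7 genes in 3 comparisons, filled where the adjusted p was under 0.05. Between the primed groups Hic1 (1.93) and Rara (-0.84) are filled, and the widest error bars are those of Ncor1. The direction of Hic1 and Dhrs3 against naive was fixed by the filter.

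Summed over genes, RAR transcripts were lower in primed than in naive cells by a larger factor than RXR transcripts. The RAR genes together (Rara, Rarb and Rarg) reached 46.1 ± 2.06 FPKM in the naive libraries, 17.0 ± 3.30 in the spleen-primed and 9.82 ± 1.71 in the MLN-primed cells (means ± SD of 3 libraries, as below). The RXR genes together (Rxra, Rxrb and Rxrg) reached 35.3 ± 1.85, 29.4 ± 1.73 and 25.5 ± 0.583 FPKM. Within a library, where scaling cancels out, the ratio of RAR to RXR transcripts was 1.23 to 1.38 in naive, 0.498 to 0.698 in the spleen-primed and 0.313 to 0.422 in the MLN-primed libraries, with no overlap between groups. Rara made up 57.6 ± 0.830% of RAR transcripts in naive, 78.0 ± 3.56% in the spleen-primed and 70.6 ± 2.58% in the MLN-primed cells. Every primed library had a larger Rara share than every naive one. Rxra made up 13.8 ± 1.02%, 26.1 ± 1.44% and 25.7 ± 1.23% of RXR transcripts. In an exact two-sided permutation test with 3 libraries a group, the smallest possible p is 0.1. The 5 comparisons of these shares in which the groups did not overlap gave p = 0.1 (0.12 after Benjamini-Hochberg adjustment over 6 exact permutation tests). The Rxra share between the primed groups differed by -0.342 percentage points, with p = 0.7 (exact permutation test, adjusted 0.7).

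**Figure D3:**
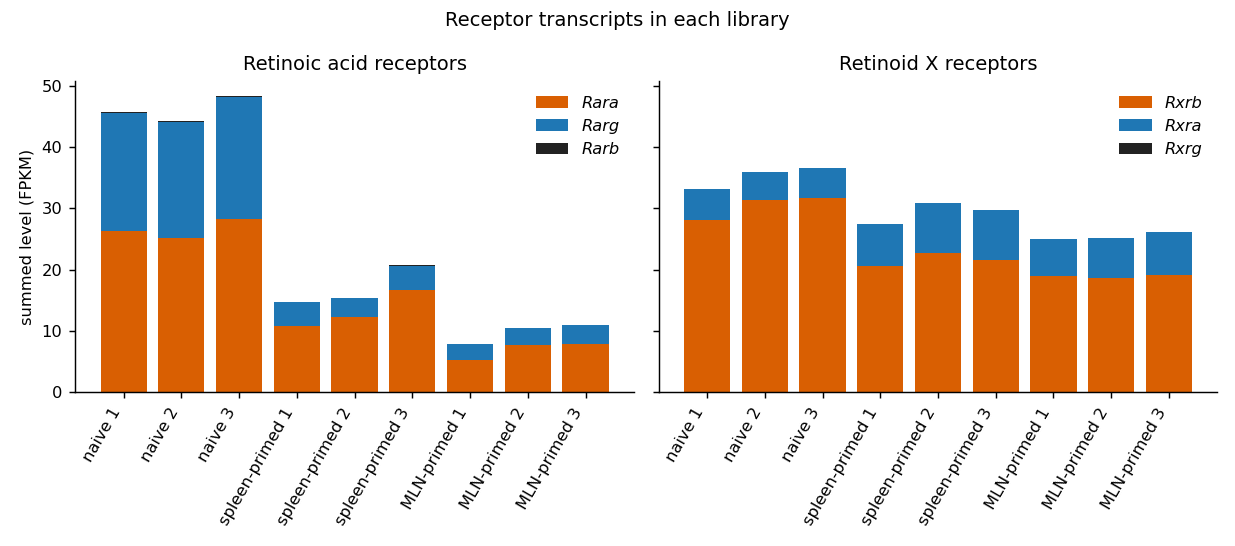
Summed FPKM of the RAR genes (left) and of the RXR genes (right) in each of the 9 libraries, as stacked bars from 0. RAR sums are 44.3 to 48.3 in naive libraries and 7.86 to 11.0 in MLN-primed ones, whereas RXR sums lie between 25.1 and 36.6 in all libraries.

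The corepressor gene Ncor1 was lower in primed than in naive libraries, but with wide spread inside each primed group. It was at 33.1, 33.9 and 41.9 FPKM in the naive libraries, 12.7, 14.9 and 27.5 in the spleen-primed and 9.71, 25.8 and 27.3 in the MLN-primed libraries. Every naive library was above every primed one, and the values of the primed groups interleaved. Its mean transcript length of 6422 bases exceeded that of 92.2% of tested genes, and Ncor1 was lowest in libraries 1 of both primed groups, which also had the lowest length slopes of their groups. The difference from naive was -1.02 ± 0.37 for spleen-primed and -0.88 ± 0.37 for MLN-primed cells (limma, adjusted p = 0.0295 and 0.0496). These calls ended in 8 and 9 of 19 alternative settings, among them removal of the length trend (-0.70 and -0.58, adjusted p = 0.0696 and 0.122). Over all alternatives the adjusted p reached 0.138 and 0.191. Leaving out any naive library or spleen-primed 2 ended both calls, and leaving out spleen-primed 1 ended that for spleen-primed cells (-0.80, adjusted p = 0.102). Without MLN-primed 1 the difference of MLN-primed cells from naive was -0.43 (adjusted p = 0.150). Between the primed groups the difference was 0.13 ± 0.37 (limma, adjusted p = 0.826), and without spleen-primed 3 and MLN-primed 1 it was 0.90 (adjusted p = 6.54e-04), a setting in which group and length slope cannot be told apart.

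**Figure D4:**
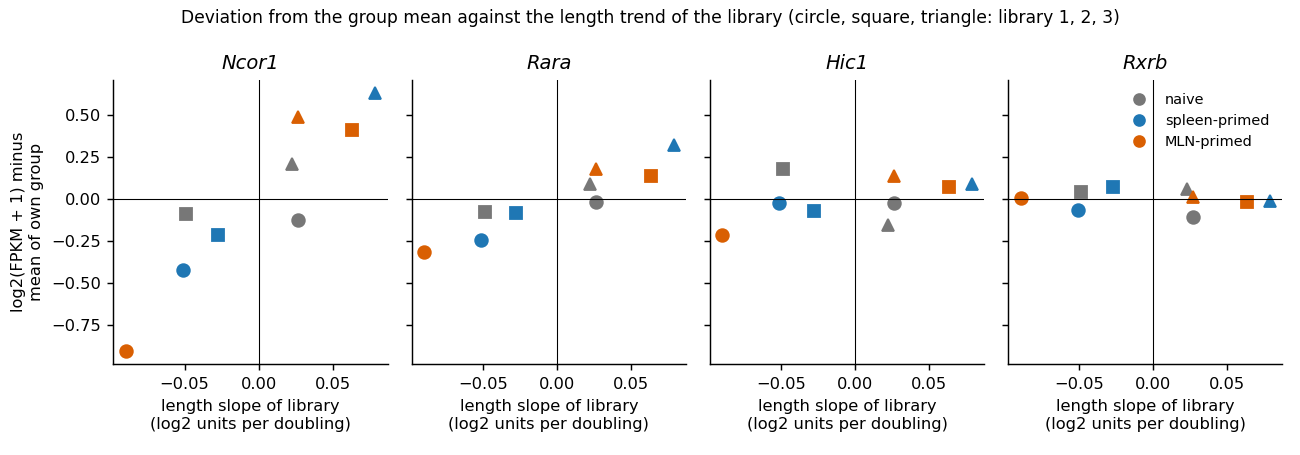
Deviation of log2(FPKM + 1) from the mean of the library's own group (vertical axis) against the length slope of the library (horizontal axis, log2 units per doubling of length) for Ncor1, Rara, Hic1 and Rxrb. Ncor1 spans -0.91 in MLN-primed 1 to 0.64 in spleen-primed 3 and Rara -0.32 to 0.33, whereas Rxrb runs from -0.10 to 0.07.

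Both genes known to respond to retinoic acid were low in naive and higher in primed cells, and of these genes Hic1 also parted the primed groups. Hic1 was at 0.271, 0.461 and 0.159 FPKM in the naive libraries, 1.81, 1.72 and 2.04 in the spleen-primed and 8.37, 10.4 and 10.9 in the MLN-primed libraries. The groups did not overlap, and the lowest MLN-primed library was well above the highest spleen-primed one. By the ratio of means, MLN-primed cells held 5.33 times the Hic1 level of spleen-primed cells and 33.4 times that of naive cells. The log2 differences were 1.93 ± 0.12 from spleen-primed cells (limma, adjusted p = 1.45e-05) and 3.07 ± 0.12 from naive cells. Spleen-primed cells exceeded naive cells by 1.15 ± 0.12. Hic1 passed the filter only through primed libraries, which fixed its direction against naive, so the differences from naive are given without p. In the comparison of the primed groups the value stayed between 1.86 and 2.35 over 19 alternative settings, and it was 2.08 without spleen-primed 3 and MLN-primed 1. With a pseudocount of 0.1 in place of 1 the differences from naive grew to 4.72 and 2.37, since the naive level is near 0.

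Dhrs3 was at 0.0631, 0.0660 and 0.223 FPKM in the naive libraries, 1.03, 0.845 and 1.20 in the spleen-primed and 1.17, 1.29 and 1.60 in the MLN-primed libraries. All primed libraries were above the naive ones, and the primed groups overlapped. Dhrs3 was higher than in naive cells by 0.86 ± 0.10 in the spleen-primed and 1.07 ± 0.10 in the MLN-primed cells, or by 2.44 and 2.81 with a pseudocount of 0.1. As for Hic1, the filter fixed this direction, so no p is given. The primed groups differed by 0.22 ± 0.10, which did not pass (limma, adjusted p = 0.149).

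Counted together, 2 of 7 genes passed between the primed groups, 1 higher and 1 lower, where 30.4% of all tested genes passed (17.3% higher and 13.1% lower). Under median-of-ratios scaling 4 passed, 1 higher and 3 lower, and the balance of all genes turned too, from 1760 higher and 1333 lower to 1443 higher and 1575 lower. Hic1 and Dhrs3 entered the test only through primed libraries, so their direction against naive was fixed by the filter and they are left out of the counts against naive. Of the 5 others, 5 passed in spleen-primed cells (Rxra higher, 4 lower), where 75.8% of all genes passed (43.1% higher and 32.7% lower). In MLN-primed cells the same 5 genes passed in the same directions, where 78.7% did (45.5% higher and 33.2% lower). These shares say little about the genes as a set, since most genes differed between primed and naive cells. The primed groups share the naive libraries, so their changes against naive are not independent of each other. The median change of all tested genes was 0.10 in the spleen-primed and 0.15 in the MLN-primed cells against naive, and -0.01 in both under median-of-ratios scaling. Relative to the former medians, Rxra was 0.46 and 0.22 higher, the smallest of the 3 rises. All directions of the 7 genes against naive were kept in the scaling alternatives. Of all calls in spleen-primed cells 56.8% were rises, against 46.6% after quantile normalisation.

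Outside these genes, 59 other genes of the retinoid pathway were listed, of which 34 were tested. Between the primed groups 9 were higher and 2 lower (32.4%, close to the 30.4% of all genes), with a median difference of 0.08 against 0.03 over all tested genes. Leaving out spleen-primed 3 and MLN-primed 1 gave 18 higher and 2 lower, again with group and length slope tied together. Over all genes this setting gave 2488 higher and 1356 lower of 10079 tested, against 1760 and 1333 of 10185 with all libraries. Against naive, 10 were higher and 17 lower in spleen-primed cells (median -0.38, against 0.10 for all tested genes), and 13 higher and 14 lower in MLN-primed cells (median -0.19, against 0.15). In both cases 79.4% of the 34 passed, near the 75.8% and 78.7% of all tested genes. Of 10 listed response genes known from T cells 7 were tested, and 5 of these were higher and 0 lower, where 17.3% of all tested genes were higher. The list was drawn up with earlier results of these data known, so this count is a description and not a test. The 2 that did not pass were the integrin genes Itga4 and Itgb7, with differences of -0.17 and -0.18 (limma, adjusted p = 0.301 and 0.0821). Gpr15 reached the filter through its MLN-primed libraries and 1 spleen-primed one, so the filter favoured its direction among the 5 higher genes. It was below 1 FPKM in every naive library, so the filter fixed its direction among the 13 pathway genes higher in MLN-primed than in naive cells. The untested Gprc5a and Tgm2 were lower in MLN-primed cells by their means, at 0.330 against 0.606 FPKM and 0.0451 against 0.186. The 5 were the gut-homing receptor gene Ccr9 (4.33), the CD103 chain gene Itgae (1.68), the ATP-gated channel gene P2rx7 (1.62), the homing receptor gene Gpr15 (1.31) and the AP-1 family gene Batf (0.36), given as log2 differences of MLN-primed from spleen-primed cells. Ccr9 and Itgae were highest in naive cells, and differed from them by -5.19 and -4.27 in the spleen-primed and by -0.85 and -2.59 in the MLN-primed cells. P2rx7 was at 2.42 to 3.08 FPKM in the MLN-primed, 0.154 to 0.309 in the spleen-primed and 1.21 to 1.34 in the naive libraries. Its differences from naive had opposite signs, -0.87 in the spleen-primed and 0.75 in the MLN-primed cells (limma, adjusted p = 1.30e-05 and 3.18e-05).

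Of the other nuclear receptors, 4 of 12 reached the filter. Thra, the thyroid hormone receptor gene, was higher in MLN-primed cells than in the other primed group (0.58 ± 0.12; limma, adjusted p = 0.00573), at 1.65 ± 0.263 against 0.765 ± 0.175 FPKM, both below the 9.32 ± 1.21 FPKM of naive cells. Nr1h2, which encodes the oxysterol receptor LXR beta, was lower (-0.32 ± 0.09, adjusted p = 0.0249), as was Rora, which encodes an orphan receptor (-0.52 ± 0.15, adjusted p = 0.0228). The Nr1h2 call ended in 6 of 19 and the Rora call in 4 of 18 alternative settings, in both cases without spleen-primed 2 (adjusted p = 0.0598 and 0.0592) or spleen-primed 3 (adjusted p = 0.0775 and 0.0664). The Nr1h2 call also ended without MLN-primed 1 (adjusted p = 0.0646) or MLN-primed 2 (adjusted p = 0.0519). With spleen-primed 3 and MLN-primed 1 left out the differences were -0.17 and -0.28 (adjusted p = 0.107 and 0.0866).

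As for Ncor1, no difference between the primed groups passed for other corepressor genes, with 0 of 8 tested passing the adjusted threshold in limma and 0 at an unadjusted p under 0.05. Of all tested genes 30.4% passed the adjusted threshold, and with 8 genes the count is a description only. Against naive, 2 rose and 3 fell in either primed group, or 62.5% called, where 75.8% and 78.7% of all tested genes were. Among coactivators 1 of 8 passed (12.5%, against 30.4% of all tested genes), the arginine methyltransferase gene Carm1. It was at 13.3, 16.6 and 18.3 FPKM in MLN-primed and 7.34, 8.09 and 11.1 in spleen-primed libraries (0.80 ± 0.15, limma, adjusted p = 0.00326). Against naive, 6 of 8 coactivators fell and 0 rose in the spleen-primed cells, and 5 fell and 1 rose in the MLN-primed cells. That is 75.0% called in each, near the 75.8% and 78.7% of all tested genes, of which 32.7% and 33.2% were lower. The acetyltransferase gene Crebbp differed from naive by -2.09 and -2.01 (limma, adjusted p = 4.45e-04 and 5.27e-04), with primed libraries between 0.303 and 2.55 FPKM. Like Ncor1, it was lowest in spleen-primed 1 (0.583 FPKM) and MLN-primed 1 (0.303), which had the lowest length slopes of their groups. The part of the length slope was not tested for the coactivators alone.

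Genes of retinoid uptake, binding and synthesis were mostly at or near 0. Of 17 listed, 7 were tested, and 2 were higher and 0 lower in MLN-primed cells. That is 28.6% called, near the 30.4% of all tested genes. Fabp5, which encodes a fatty acid binding protein that can also carry retinoic acid, was at 201, 165 and 174 FPKM in MLN-primed, 80.1, 81.9 and 71.1 in spleen-primed and 5.17, 3.99 and 5.48 in naive libraries (1.20 ± 0.11 between the primed groups; limma, adjusted p = 9.59e-05). Retsat, the retinol saturase gene, differed by 0.35 ± 0.11 (limma, adjusted p = 0.0363), a call that ended in 10 of 18 alternative settings, among them leaving out naive 3, spleen-primed 1 or 3, or MLN-primed 1 or 2 (adjusted p = 0.0502 to 0.108). Aldh1a2, the retinaldehyde dehydrogenase gene of gut dendritic cells, stayed at 0.0715 FPKM or less in every library, and Crabp2 at 0.0592 or less. The Cyp26 genes, whose enzymes degrade retinoic acid, were listed at 0 in all primed libraries. Stra6, the retinol uptake receptor gene, was below the filter and is named after its values were seen. It was listed at 0 in all 6 naive and spleen-primed libraries and at 0.334, 0.391 and 0.378 FPKM in the 3 MLN-primed libraries.

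**Figure D5:**
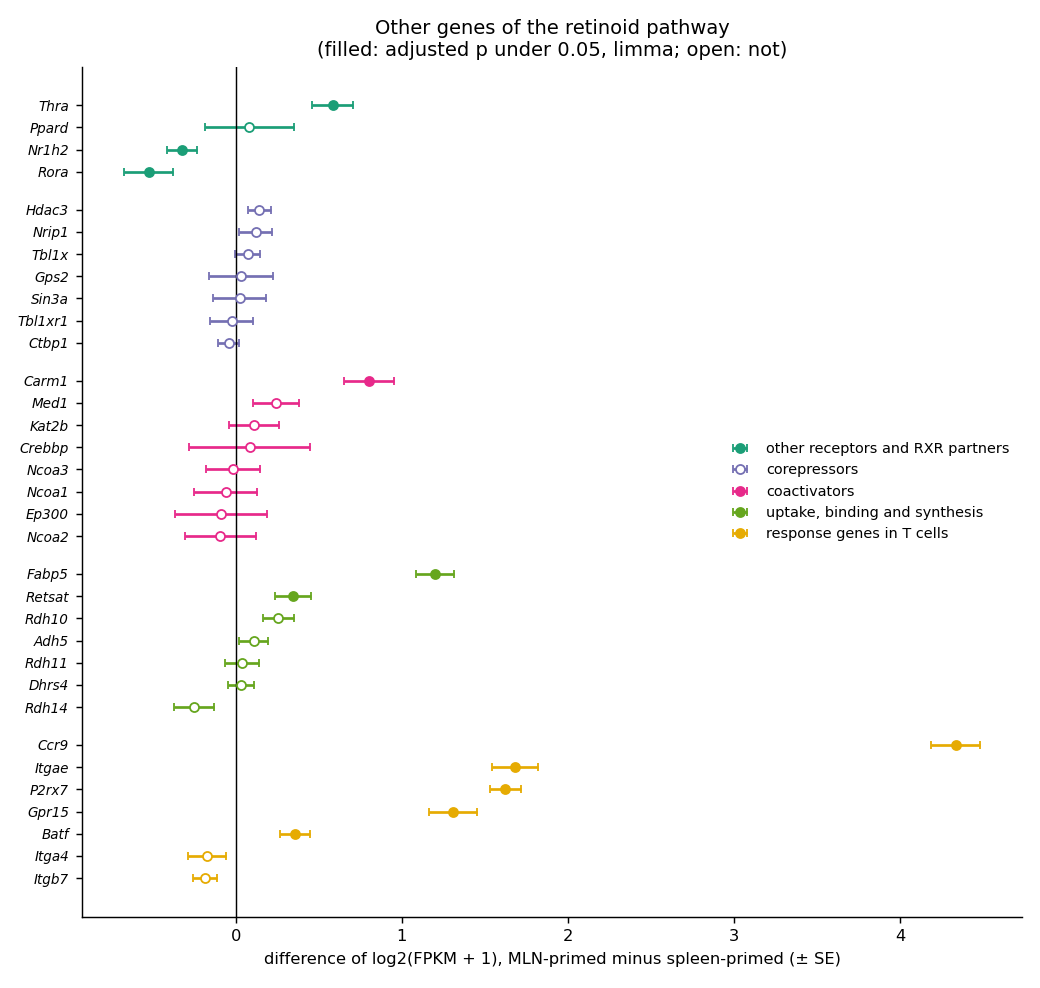
Differences of log2(FPKM + 1) between MLN-primed and spleen-primed cells with their standard error (horizontal axis) for tested pathway genes, grouped by role and filled where the adjusted p was under 0.05. The response genes Ccr9 (4.33), Itgae, P2rx7 and Gpr15 and the binding protein gene Fabp5 (1.20) lie to the right, and no corepressor is filled.

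Genes with the most similar pattern were sought by Pearson correlation of log2(FPKM + 1) over the 9 libraries, among tested genes with a group mean of 5 FPKM or more. The libraries share groups, so r mostly restates the 3 group levels and is given as a description. Closest to Hic1 were the chaperone gene Hsp90ab1 (r = 0.993; 682, 1052 and 1941 FPKM on average in the 3 groups, naive first and MLN-primed last), the translation initiation factor gene Eif2b3 (0.993) and the poly(A) binding protein gene Pabpc4 (0.992). Closest to Rara were Arhgef3 (0.995; 78.6, 53.2 and 34.7 FPKM), the peroxisomal oxidase gene Acox3 (0.995) and Rbl2 (0.995), which encodes a retinoblastoma family protein. Rarg was closest to Dyrk2 (0.998), the chromatin organiser gene Satb1 (0.997) and the phosphodiesterase gene Pde4d (0.997). For Rxra they were Lin37 (0.986), Vasp (0.979) and Tbc1d10b (0.976), and for Rxrb Abtb1 (0.993), Wdr45 (0.993) and Qprt (0.992). Dhrs3 went with the lamin gene Lmnb2, Acap3 (both 0.995) and Hnrnpa2b1 (0.993). Ncor1 went with Kif21b (0.997), Taf4a (0.995) and Arid1a (0.995), which had the same wide spread within the primed groups, with Kif21b at 26.5 ± 14.5 FPKM in the spleen-primed and 31.8 ± 16.7 in the MLN-primed cells.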

How the data were processed

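Per the labels' protocols, RNA came from an RNeasy Plus Micro kit and libraries from a stranded TruSeq kit for mRNA. The deposited values are FPKM per gene, which the authors made with TopHat and Cufflinks, using mm10, as the submitters' processing notes record. The aligner version, filters and the use of strand were not given in the sources used here. A second table, titled as transcript values, was byte for byte identical and was not used.

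Of 24067 rows, 131 carry no symbol (0.0479% of all FPKM) and were left out. Groups come from the treatment labels. The model was limma-trend (limma 3.58.1, R 4.3.3) on log2(FPKM + 1) without further scaling, with 3 contrasts, two-sided tests and adjustment over 10185 genes. The fit was tested on simulated data with known changes between the primed groups. Of log2 changes of 0.5, 1, 2 and -1, it recovered 55.6%, 91.8%, 98.2% and 93.4%, and 5.03% of calls were false. Smaller changes were not simulated. Errors were drawn independently for each gene and library, so the length trend of the libraries was not part of this test. Receptor shares were tested by exact permutation. Other steps used scipy 1.17.1, pandas 2.3.3, numpy 2.4.6 and, for figures, matplotlib 3.10.9 under Python 3.11.15.

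Transcript lengths came from GENCODE M21 transcripts paired with the RefSeq accessions of each row (10087 of 10185 tested genes), and promoter windows from RefSeq. The genes described and the pathway and marker lists were chosen with earlier results of these data known. Named pathway genes are those that passed between the primed groups, plus reference genes, of which Rarb, Rxrg, Cyp26b1, Aldh1a2 and Crabp2 are given, and the 3 genes of highest correlation with each gene, among tested genes with a group mean of at least 5 FPKM, leaving aside receptor segments, small RNAs, ribosomal protein pseudogenes and gene models that are predicted or named by a clone. Crebbp, Itga4 and Itgb7 were also named, after their values were seen. Some listed genes are not reported here. Alternatives were a pseudocount of 0.1, no filter or 5 FPKM, 2 other scalings, robust estimation, only the libraries compared, a replicate block, each library left out, 2 libraries left out together, and the linear trend with length removed from each library.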

Additional observations from a re-analysis of the deposited data

Results flagged for a closer look

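The change against naive differed between the primed groups for 2 of the 7 genes (28.6%), where 30.4% of all tested genes passed. This was read from the contrast of MLN-primed with spleen-primed cells, which is the difference of their changes against the shared naive libraries. Priming and organ cannot be told apart in this contrast. Hic1 was higher by 1.93 in MLN-primed cells (limma, adjusted p = 1.45e-05), and all 3 MLN-primed libraries were above all 3 spleen-primed ones. For Rara the difference was -0.84 (limma, adjusted p = 0.00430), and all 3 MLN-primed libraries were below all 3 spleen-primed ones. By the same contrast, 11 of 34 other tested pathway genes differed (32.4%, close to the 30.4% of all tested genes). They were Ccr9 (4.33), Itgae (1.68), P2rx7 (1.62), Gpr15 (1.31), Fabp5 (1.20), Carm1 (0.80), Thra (0.58), Batf (0.36), Retsat (0.35), Nr1h2 (-0.32) and Rora (-0.52). The calls of Retsat, Nr1h2 and Rora ended in 10 of 18, 6 of 19 and 4 of 18 alternative settings. Gpr15 reached the filter through its MLN-primed libraries and 1 spleen-primed one, which favoured its direction. The P2rx7 changes against naive had opposite signs in the primed groups.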

How the results depend on the processing

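Over the alternatives, 372 log2 changes of the 7 genes stayed on their side of the threshold, 17 no longer passed, all of them Ncor1 against naive, and 6 passed that had not. The 372 hold the Hic1 and Dhrs3 differences from naive, whose direction was fixed by the main filter. Those 6 are Rarg in 4 settings, Rxrb in 1 and Ncor1 in 1, all between the primed groups. No called change reversed. The number of the 7 genes called between the primed groups was 4 in place of 2 under median-of-ratios scaling. The number of other pathway genes called there was 11, against 7 with a filter of 5 FPKM, which tests fewer genes. It was 20 with spleen-primed 3 and MLN-primed 1 both left out, where the cause was not tested. Over all genes, leaving out both libraries gave 3844 calls of 10079 tested, against 3093 of 10185. Other counts, and all receptor shares with a library left out, stayed within 1.5 times the value given or within 1 SD. Leaving out 1 library gave 2123 to 3166 calls over all genes between the primed groups, against 3093. Replicate numbers are shared by the groups, but deviations from the group means correlated at 0.645 for libraries 1 of both primed groups, -0.240 for libraries 2 and 0.485 for libraries 3, so a shared number was not taken as pairing. With the replicate block, 3382 genes in all and 2 of the 7 were called between the primed groups, and no call of the 7 genes changed. Not every library correlated best with its own number. Read depth is unknown, so the counting error of low levels, such as those of Dhrs3 in naive cells, cannot be given.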

Other observations

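Among listed genes that stayed under the filter, 2 known response genes had lower means in MLN-primed cells than in the other primed group, opposite to the tested response genes that passed. Gprc5a, an orphan receptor gene known to be induced by retinoic acid in other cells, was at 0.0412 FPKM or less in the naive libraries, at 0.512 to 0.663 in the spleen-primed and at 0.177 to 0.483 in the MLN-primed ones. The transglutaminase gene Tgm2, another known response gene, was at 0.140 to 0.249, 0.0824 to 0.332 and 0.0116 to 0.0793 FPKM in the same order. Neither gene was tested, and both were chosen after their values were seen.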
